A study of Homo sapiens with 6 samples.

Results

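The histone genes were read from an RNA sequencing experiment on U251, an established human cell line grown from an astrocytic glioma. Members were chosen by symbol, as every gene of the deposited table with a name of the H1, H2A, H2B, H3 or H4 families that the naming rule covers, which gave 100 of 60612 genes. Of these, 70 were replication-dependent genes, 13 were classed as replication-independent variants, 15 were pseudogenes and 2 were long noncoding RNAs named after a histone gene. The control group held 3 libraries of wild-type U251 cells without 6-shogaol. The other 3 libraries were of wild-type U251 cells given 6-shogaol, a pungent ketone of dried ginger, at a dose that the labels give as 60 with the unit "μm", read here as micromolar. Both groups carry the time point 24 h and the same medium, DMEM with serum. Whether the controls received a vehicle is not stated, and U251 is 1 line, so the comparison covers that line alone. The study set out to find what the compound does to the transcriptome of glioma cells.

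Histones package DNA into nucleosomes, with H2A, H2B, H3 and H4 in the core and H1 on the linker. Replication-dependent histone genes lie in clusters, have no introns in their coding part and are transcribed mainly in S phase. Most of their mRNAs end after a conserved stem-loop, which the stem-loop binding protein SLBP holds, and carry no poly(A) tail. Most variant genes lie alone, are transcribed throughout the cell cycle and give polyadenylated mRNAs, and some clustered genes also yield polyadenylated mRNAs outside S phase.

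The stem-loop was looked for first, because it marks the usual end of replication-dependent mRNAs and because an annotated model that runs past it describes an mRNA not ended there. The 16 letters of the histone stem-loop, with letters 4, 10 and 13 left free, were searched on the sense strand of GENCODE 29 transcripts, where they occurred in 58 of 206694 transcripts (0.0281%), 49 of which came from 33 of the members. The lines below show them 5′ to 3′ for members of different types, with the 16 letters in capitals and 5 flanking bases on each side in lower case.
H2AC11: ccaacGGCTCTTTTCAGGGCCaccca
H2BC21: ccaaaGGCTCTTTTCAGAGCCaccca
H3C10: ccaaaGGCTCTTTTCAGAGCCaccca
H4C9: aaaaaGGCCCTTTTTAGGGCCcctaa
H2AC13: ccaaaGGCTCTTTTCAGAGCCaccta
H2AX: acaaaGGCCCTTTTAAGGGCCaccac
The models of H2AC11, H2BC21, H3C10 and H4C9 ran on for 1761, 1729, 769 and 212 bases past the stem-loop. That of H2AC13 ran on for 39 bases. H2AX, a variant, was the only variant of 13 whose models held these letters, and its longest model continued for 1044 bases. It is counted with the variants in the sums and medians below.

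Library totals ran from 43516840 to 60018999 counts, of which the members took 88509 to 139448. The labels do not say whether replicates came from separate cultures, and p-values here reflect the spread among the libraries, part or all of which could be technical. Among markers of the line, VIM lay at 5602 to 9763 CPM (counts scaled to library size by TMM), NES at 539 to 777 CPM and SOX2 at 235 to 329 CPM, while GFAP lay at 8.39 to 33.9 CPM and S100B at 0.23 to 1.35 CPM. Leukocyte markers reached at most 0.266 CPM, with CD3E at 0. KRT8, an epithelial marker, lay at 123 to 186 CPM and SYT1, a neuronal marker, at 48.7 to 71.3 CPM. The deposited counts were uneven at the low end: over the 6 libraries and all genes, 8318 values equalled 4, against 3413 at 3 and 1868 at 5. Of 93 values from 1 to 8 in replication-dependent genes, 57 were exactly 4 or 8, so 1 deposited count need not be 1 fragment and no counting interval is given.

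Counts were found for 79 of the 100 members, and 21 had none in any library, namely 10 replication-dependent genes, 8 pseudogenes and the variants H1-8, H2BW1 and H2BW2. A mean of at least 10 counts was reached by 44 members, which are those described, and 43 of them entered the test, 30 of them replication-dependent. H1-5 lay just inside this limit with a mean of 11 counts and H1-4 just outside with 9. H4-16 was read but not tested, with 8, 46 and 27 counts in the controls and 8, 8 and 7 with 6-shogaol. The variant H2AJ was too low to read, with 0, 4 and 8 counts in the controls and 8, 0 and 22 with 6-shogaol.

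Variant genes carried most of the measured histone mRNA. On the length-scaled FPKM scale, the 8 variants read had a median level of 75.1 FPKM (2.47 to 129), and 7 of them exceeded 10 FPKM. The 31 replication-dependent genes read had a median level of 0.665 FPKM (0.0953 to 59.6), and the only one over 10 FPKM was H2BC12, a clustered H2B gene on chromosome 6. The next replication-dependent gene in order, H2AW, had a mean level of 3.81 FPKM. Variants made up 96.1% to 96.4% of the summed CPM of coding members in the controls and 96.6% to 96.9% with 6-shogaol. CPM is not scaled by length, and on the FPKM scale the summed levels were closer, at 596 FPKM for variants and 96.9 FPKM for replication-dependent genes in the controls and at 552 and 82.0 FPKM with 6-shogaol. The libraries were made with an mRNA-Seq kit, and the share of each histone mRNA that the kit captured was not measured.

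**Figure D1:**
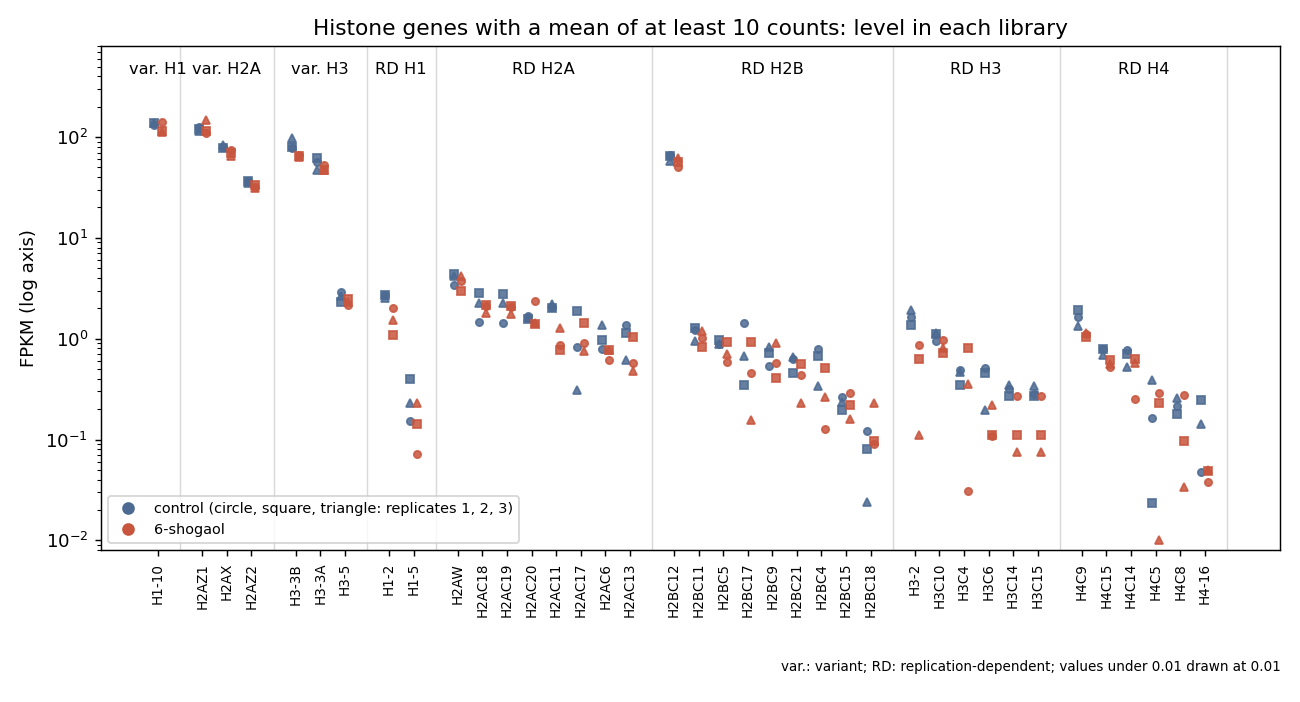
Level of the coding histone genes read and reported, in FPKM on a log axis, by class and histone type, with 1 point per library (circle, square and triangle for replicates 1, 2 and 3). The variants shown, except H3-5, lie far above the replication-dependent genes, except for H2BC12 at a mean of 59.6 FPKM.

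With 6-shogaol, 1 of the 43 tested histone genes fell (H2AC11) and 0 rose, by edgeR's quasi-likelihood test with Benjamini-Hochberg adjustment over 19279 genes and a threshold of 0.05. Over all tested genes this test called 1.71% lower and 1.67% higher, so the count among histone genes was near the background. At an unadjusted p under 0.05, 10 histone genes were lower and 0 higher, beside 9.95% and 10.4% of all tested genes. DESeq2, run as an alternative, called 5 lower and 0 higher, beside 4.84% and 4.83% of all tested genes. These 5 were H3-3B, H3-2, H2AC11, H1-10-AS1 and H2BC19P. Limma on log2(FPKM + 1) called 1 lower and 0 higher, beside 2.51% and 3.53% of the genes it tested.

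The fitted log2 fold changes of histone genes were mostly small and below 0. They were below 0 for 36 of the 43, with a median of -0.22, while 50% of all tested genes lay below 0. For 12 of the 43 (27.9%) every 6-shogaol library lay below every control library on the CPM scale, and for 0 every one lay above. Over all tested genes, 13.9% and 14% had such groups without overlap. The median was -0.44 for the 30 replication-dependent genes, 27 of which were below 0, and -0.19 for the 8 variants, 6 of which were below 0. These counts and medians describe the members and carry no test, since the genes share the same 6 libraries. Identical copies, named further below, are counted separately in them. In bulk RNA, fewer cells expressing a gene and less RNA per cell cannot be told apart.

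**Figure D2:**
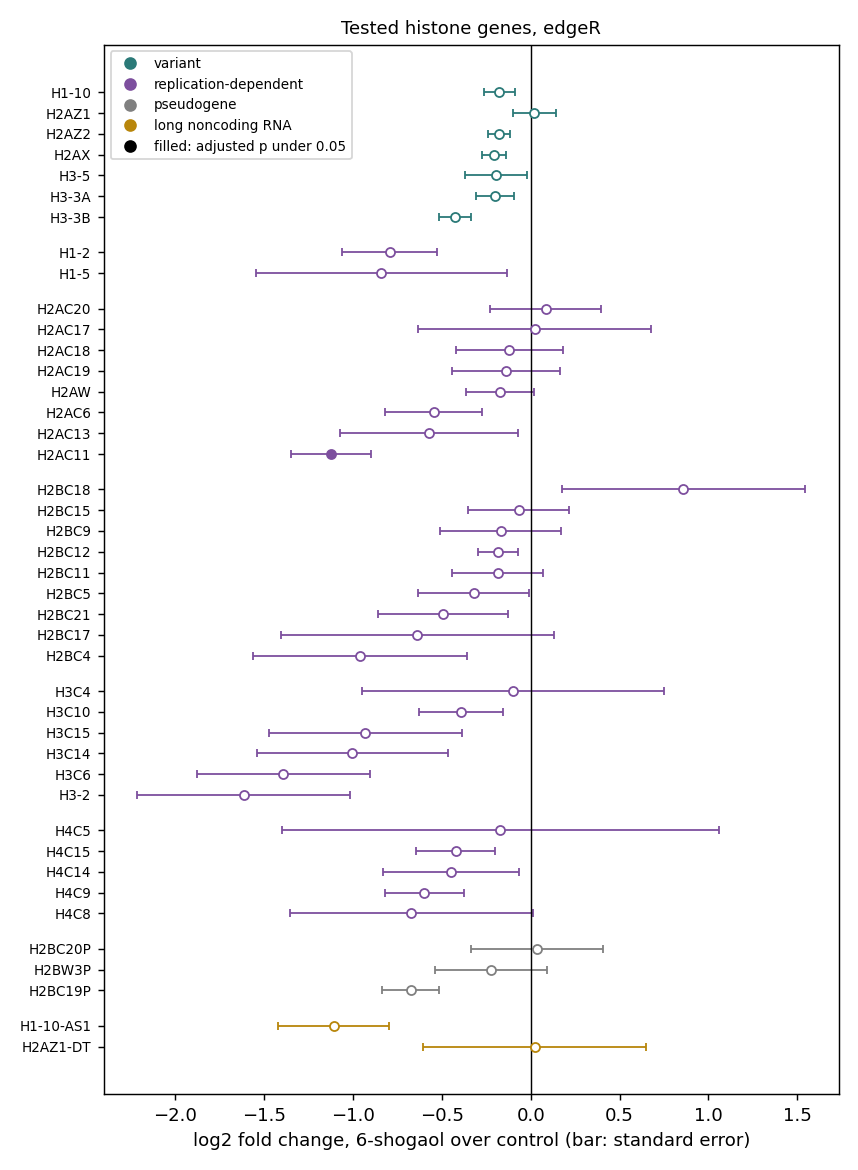
Fitted log2 fold change of the tested members reported, 6-shogaol over control, with the standard error, grouped by class and histone type. Most points lie left of 0, and H2AC11 is the only filled point (adjusted p under 0.05).

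Summed per library, replication-dependent histone mRNA lay at 88.2, 88.6 and 83.6 CPM in the controls and at 62.8, 66.4 and 68.5 CPM with 6-shogaol. The groups did not overlap, and the means were 86.8 ± 2.79 and 65.9 ± 2.88 CPM (SD, n = 3 each), a log2 ratio of -0.40. H2BC12 alone made 40.2% to 44.9% of this sum in the controls and 45.5% to 52.9% with 6-shogaol. Without H2BC12 the sum was 48.6, 50.4 and 50 CPM in the controls and 34.2, 33.0 and 32.3 CPM with 6-shogaol, a log2 ratio of -0.58. Within this sum, H3-2 had means of 7.75 CPM in the controls and 2.52 CPM with 6-shogaol, and H2AC11 had 5.61 and 2.58 CPM. The class sum without them was not taken, so how evenly the difference is spread over the class is not shown. On the FPKM scale the ratio of the whole class was smaller, at -0.24, and without H2BC12 it was -0.40. Summed variants lay at 2167, 2236 and 2221 CPM in the controls and at 1961, 1907 and 1954 CPM with 6-shogaol. These groups did not overlap either, with a log2 ratio of -0.19 on the CPM scale and -0.11 on the FPKM scale. No test was run on these sums.

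**Figure D3:**
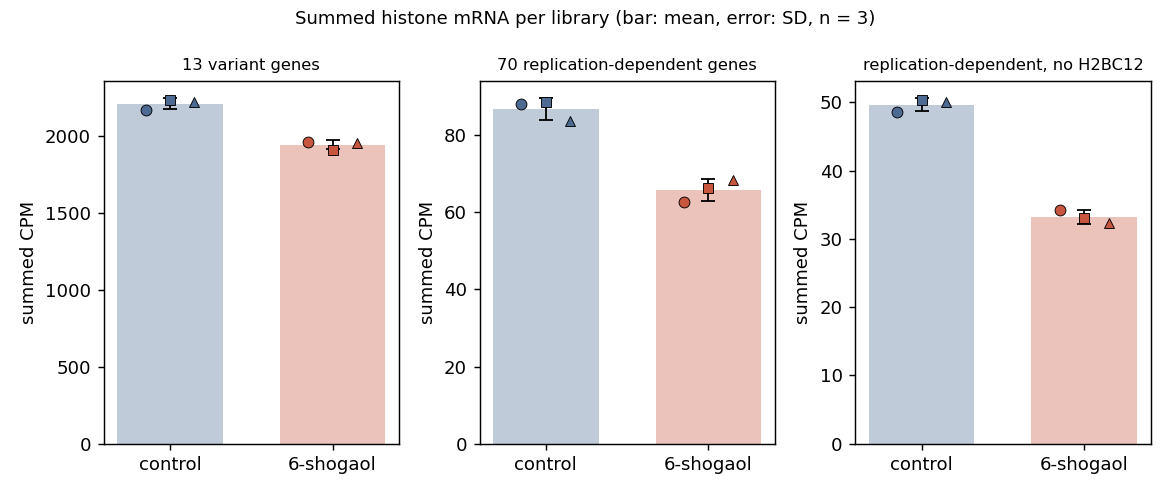
Summed CPM per library of the 13 variant genes, the 70 replication-dependent genes and the latter without H2BC12 (points: libraries, bars: means, error bars: SD, n = 3). All 6-shogaol points lie below all control points in each panel, at means of 1941, 65.9 and 33.2 CPM against 2208, 86.8 and 49.7 CPM.

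Among the variants, the H3.3 genes came first. H3-3A and H3-3B encode the same protein, the H3 form placed into chromatin outside replication, and supplied 98.1% to 98.5% of coding H3 CPM in the controls and 98.7% to 99.1% with 6-shogaol. H3-3B, on chromosome 17, lay at 577, 587 and 713 CPM in the controls and at 468, 470.3 and 459 CPM with 6-shogaol. All treated libraries lay below all controls, control 3 was the highest, and the treated values lay close together. The fitted log2 fold change was -0.43 ± 0.09 (SE), with an edgeR adjusted p of 0.0547, so H3-3B did not pass the main test, while DESeq2 gave an adjusted p of 0.00203. H3-3A, on chromosome 1, lay at 336, 372 and 282 CPM in the controls and at 303, 279.5 and 278 CPM with 6-shogaol. These groups overlapped (log2 fold change -0.20, edgeR adjusted p = 0.342). H3-5, a related intronless H3 gene, lay at 3.10 to 3.85 CPM in the controls and at 2.78 to 3.31 CPM with 6-shogaol, with a log2 fold change of -0.19 and an edgeR adjusted p of 0.598.

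The H2A variants differed little between the groups. H2AZ1, which encodes the H2A.Z found at promoters, lay at 338, 328 and 307 CPM in the controls and at 286, 309 and 393 CPM with 6-shogaol. The treated group held both the lowest and the highest library, and the fitted log2 fold change of 0.02 (edgeR adjusted p = 0.947) was below 0 without control 3 or without 6-shogaol 3, at -0.02 and -0.12. H2AZ2, the second H2A.Z gene, lay at 304, 305 and 289.5 CPM in the controls and at 259, 277 and 257 CPM with 6-shogaol. Its groups did not overlap, yet the difference was small (log2 fold change -0.18, edgeR adjusted p = 0.158). H2AX, the form phosphorylated around DNA breaks, lay at 154, 149 and 157 CPM in the controls and at 139, 135 and 124 CPM with 6-shogaol. Here too every treated library was lower, by a log2 fold change of -0.21 that missed the threshold (edgeR adjusted p = 0.145).

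H1-10, a linker histone variant, lay at 238, 252 and 246 CPM in the controls and at 244, 206 and 200.5 CPM with 6-shogaol. Only treated replicate 1 lay within the control range, and the log2 fold change was -0.18 (edgeR adjusted p = 0.313).

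H2AC11, a clustered H2A gene at chr6:27133042-27135291 as deposited, was the histone gene that fell. Its counts were 285, 317 and 353 in the controls and 126, 104 and 149 with 6-shogaol, or 5.51, 5.42 and 5.88 CPM against 2.23, 2.07 and 3.42 CPM. The controls lay close together and all treated libraries were well below them, with replicate 3 the highest of the treated. The log2 fold change was -1.12 ± 0.22 (SE), with an edgeR adjusted p of 0.0472. This call is close to the threshold and was lost without control 1, 2 or 3 (adjusted p = 0.137, 0.147 and 0.135) and without 6-shogaol 1 or 2 (0.0794 and 0.135), while it held without 6-shogaol 3 (0.0377). Over all alternatives its fold change ran from -1.38 to -0.66.

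The other replication-dependent types were read by their leading genes, none of which passed the edgeR test. H3-2, the H3 member with the highest CPM, lay at 7.80, 6.43 and 9.03 CPM in the controls and at 4.02, 3.01 and 0.528 CPM with 6-shogaol. The treated libraries were all lower but unlike each other, so its log2 fold change of -1.61 had a standard error of 0.60 and an edgeR adjusted p of 0.192. Without 6-shogaol 3 the fold change was -1.14. GENCODE 29 lists this gene identifier as a processed transcript, although the deposited table calls it protein coding. It was placed in the replication-dependent class by its symbol, and its models held no stem-loop letters. Without H3-2 the summed replication-dependent H3 genes lay at 5.55, 5.49 and 4.73 CPM in the controls and at 3.24, 3.31 and 3.31 CPM with 6-shogaol, again without overlap. All 6 tested H3 genes had fitted values below 0, with a median of -0.97.

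H4C9, the leading H4 gene, lay at 2.53, 3.01 and 2.03 CPM in the controls and at 1.65, 1.61 and 1.75 CPM with 6-shogaol. The groups did not overlap (log2 fold change -0.60, edgeR adjusted p = 0.19). The summed H4 genes lay at 7.56, 7.97 and 6.92 CPM in the controls and at 4.94, 5.42 and 4.62 CPM with 6-shogaol. All 5 tested H4 genes were below 0, with a median of -0.45. H4C14, whose value is this median, and H4C15 are copies identical over the bases compared and are counted separately. H1-2, the leading clustered linker gene, lay at 2.36, 2.41 and 2.18 CPM in the controls and at 1.72, 0.957 and 1.33 CPM with 6-shogaol. It too had groups without overlap, with a log2 fold change of -0.79 and an edgeR adjusted p of 0.155.

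H2A and H2B genes had fitted values closer to 0. The median was -0.15 over 8 tested H2A genes and -0.19 over 9 tested H2B genes. Groups without overlap were found for 2 of the 8 H2A genes, H2AC11 among them and both lower, and for 0 of the 9 H2B genes. Over all tested genes 13.9% were lower and 14% higher without overlap, and these types hold too few genes to set against such shares. H2BC12 lay at 39.6, 38.2 and 33.6 CPM in the controls and at 28.5, 33.4 and 36.2 CPM with 6-shogaol. Treated replicate 3 was above control 3, so the groups overlapped (log2 fold change -0.18, edgeR adjusted p = 0.427). H2BC21 lay at 1.64, 1.20 and 1.72 CPM in the controls and at 1.11, 1.495 and 0.62 CPM with 6-shogaol. Its log2 fold change of -0.49 (edgeR adjusted p = 0.513) was -0.22 without 6-shogaol 3 and -0.80 without 6-shogaol 2. The highest fitted value of all members, 0.86, belonged to H2BC18, which lay under 1 CPM in every library and was named after its value was seen. Whether the types differ from each other was not tested.

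**Figure D4:**
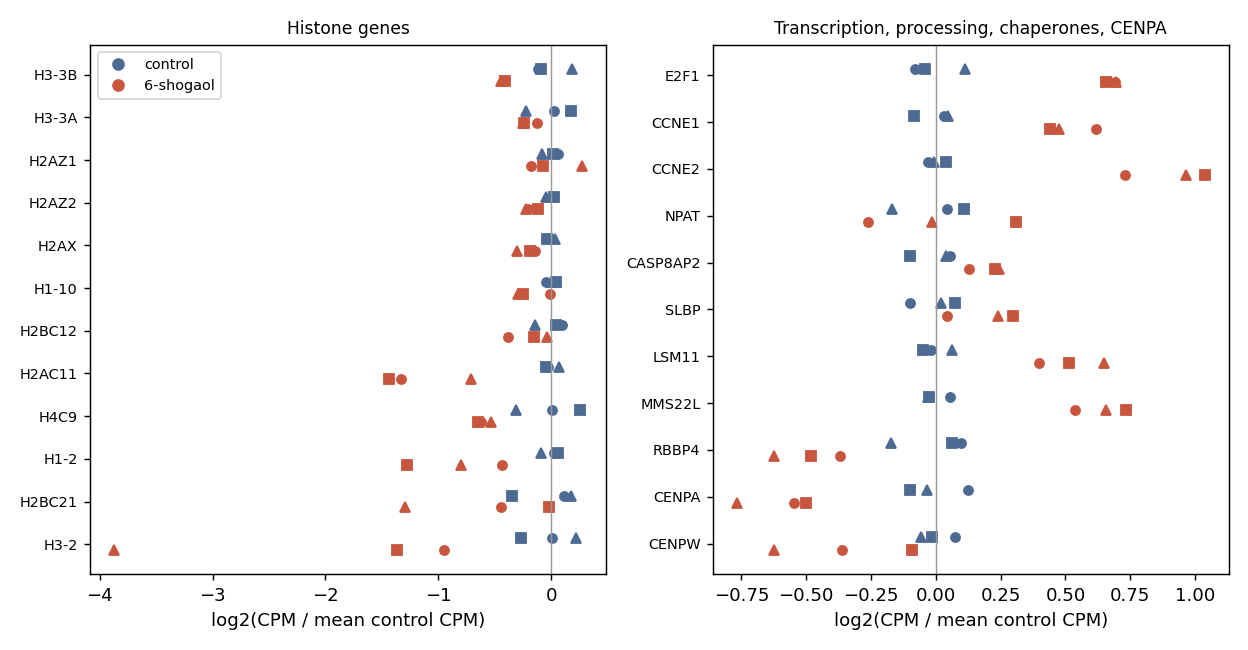
CPM of each library over the mean control CPM, on a log2 scale, for the named histone genes (left) and for named genes of transcription, processing, chaperones and centromeric variants (right), with blue for control and red for 6-shogaol. H2AC11, H1-2, H4C9 and H3-2 have all treated points left of all control points, while E2F1, CCNE1, CCNE2, LSM11 and MMS22L have all treated points to the right.

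The replication-dependent genes of chromosomes 6 and 1 had medians below 0. The median fold change was -0.54 over 19 tested replication-dependent genes on chromosome 6, 18 of them below 0, and -0.42 over 11 on chromosome 1, 9 of them below 0. The 11 include H2AW and H3-2, which lie away from the others. The 9 clustered genes known to be made also as polyadenylated mRNA (H1-2, H2AC6, H2AC18, H2AC19, H2BC4, H2BC5, H2BC11, H2BC12 and H2BC21) had a median of -0.32, with 9 of 9 below 0. The median was -0.17 without 6-shogaol 1 and -0.53 without 6-shogaol 2. H2AC18 and H2AC19 are identical copies and are counted separately here. The other 21 tested replication-dependent genes had a median of -0.45, with 18 below 0.

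Models and counts were set side by side. Of 68 replication-dependent genes with GENCODE 29 models, 21 had a model running at least 100 bases past the stem-loop shown above, and 17 of these were read, with a median over the 21 of 26.2 counts per library. Another 9 had models ending within 100 bases of it, of which 4 were read, with a median of 7.83 counts. The remaining 38 had no such letters in any model, of which 10 were read, H2BC12 and H1-2 among them, with a median of 3.17 counts. Missing letters do not show that a gene lacks the stem-loop, since a model can stop before it. The only model of H2BC12 has 381 bases, which is shorter than its deposited span of chr6:27146361-27146855. The only models of H1-2, H1-5, H2AC17, H2AC20, H2BC17 and H3C4, also read and without the letters, were likewise shorter than their deposited spans. That of H1-2 has 642 bases, for example, against a span of chr6:26055740-26056470. Whether the models of the remaining genes stop early was not tested. These counts are not scaled by length, and the part of length in this order was not tested. Among tested genes with a model past the stem-loop, 15 of 16 were below 0, with a median of -0.47. For models ending near it these were 4 of 4 and -0.23, and for models without the letters 8 of 10 and -0.41. Whether these groups differ was not tested.

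Several clustered genes stand head to head and share a promoter region, so H2AC11 was set beside its neighbour. Its start lies 291 bases from that of H2BC11 on the other strand, and the 300-base RefSeq promoter windows of the pair on GRCh38.p14 overlap by 253 bases. H2BC11 had a log2 fold change of -0.19 (edgeR adjusted p = 0.751), against -1.12 for H2AC11. Only pairs with both genes tested were compared. In the others of these, H2BC21 and H2AC20 had -0.49 and 0.08, H2AC17 and H2BC17 had 0.02 and -0.64, and H2BC4 and H2AC6 had -0.96 and -0.54. H2BC12 also stands head to head with a gene, H2AC12 at chr6:27147106-27147562, which had a mean of 4.67 counts and was not tested. The windows of H2AC11, the gene that fell, and of H2BC12, the most abundant replication-dependent gene, are shown from 250 bases before to 50 bases after the start, with the TATA box (TATAAA), the CCAAT box (CCAAT) and the octamer (ATTTGCAT) on either strand in capitals. The first is chr6:27132793-27133092 on the plus strand, and the second is chr6:27146809-27147108 on the minus strand.
H2AC11: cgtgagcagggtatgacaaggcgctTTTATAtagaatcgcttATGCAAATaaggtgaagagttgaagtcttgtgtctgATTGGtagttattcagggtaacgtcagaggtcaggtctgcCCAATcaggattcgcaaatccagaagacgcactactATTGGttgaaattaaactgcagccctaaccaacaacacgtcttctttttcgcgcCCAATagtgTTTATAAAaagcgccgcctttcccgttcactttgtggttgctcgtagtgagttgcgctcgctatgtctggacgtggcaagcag
H2BC12: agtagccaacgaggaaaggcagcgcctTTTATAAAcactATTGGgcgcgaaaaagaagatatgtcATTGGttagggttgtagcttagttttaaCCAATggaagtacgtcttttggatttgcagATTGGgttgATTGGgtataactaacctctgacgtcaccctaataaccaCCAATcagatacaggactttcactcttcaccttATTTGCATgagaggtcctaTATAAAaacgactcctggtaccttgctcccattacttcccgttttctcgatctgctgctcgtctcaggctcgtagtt
The H2AC11 window held 3 matches to the TATA box, 4 to the CCAAT box and 1 to the octamer, and the H2BC12 window held 3, 6 and 1, where matches may overlap. Of 27305 promoters, 12% held the TATA box, 35.7% the CCAAT box and 1.8% the octamer. Of the 62 replication-dependent genes with an entry, 67.7% held the TATA box, 85.5% the CCAAT box and 41.9% the octamer, which POU2F1 recognises. The octamer was in 82.4% of 17 H2B and 73.3% of 15 H2A windows of this class and in 9.09% of 11 variant windows. Of the same 11 variant windows, 36.4% held the TATA box and 90.9% the CCAAT box, so the CCAAT box was common in both classes. A match describes these letters and is not a bound site.

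Copies with the same sequence cannot be told apart by reads. H2AC18 and H2AC19, H3C14 and H3C15, and H4C14 and H4C15 were identical over 549, 1656 and 1547 compared bases. Their levels are therefore given as sums, while the counts by sign and the medians in other paragraphs count both copies of a pair. With the copies added together, 27 replication-dependent genes were tested, with a median log2 fold change of -0.434. The deposited counts of the first and second pair were nearly equal, while H4C14 and H4C15 had 33 and 67 counts in 6-shogaol 1 and 71 and 95 in control 3. The H3C14 and H3C15 pair lay at 1.20, 1.06 and 1.35 CPM in the controls and at 1.06, 0.439 and 0.322 CPM with 6-shogaol. The H4C14 and H4C15 pair lay at 3.60, 3.44 and 2.77 CPM in the controls and at 1.77, 2.87 and 2.62 CPM with 6-shogaol. Both pairs overlapped between groups, as did H2AC18 and H2AC19.

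Noncoding members share exons with coding ones or with each other. H1-10-AS1, antisense to H1-10, lay at 7.87, 8.72 and 9.17 CPM in the controls and at 5.43, 2.17 and 4.34 CPM with 6-shogaol. The groups did not overlap, and the log2 fold change of -1.11 had an edgeR adjusted p of 0.109 and a DESeq2 adjusted p of 0.00733. Its exons share 10.1% of their length with H1-10, which shares 22.9% of its own, and the strand setting of the counts is not given in the sources used here, so reads of this stretch cannot be told apart. The pseudogene H2BC19P lay at 4.47, 5.15 and 5.37 CPM in the controls and at 3.15, 3.37 and 2.87 CPM with 6-shogaol, again without overlap (log2 fold change -0.67, edgeR adjusted p = 0.072, DESeq2 adjusted p = 0.0135). It shares 55.1% of its exon length with H2BC20P on the other strand, whose log2 fold change was 0.04.

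The genes that transcribe and process histone mRNA were read next. Of 37 tested genes of a list for histone transcription and 3′ end processing, 4 rose and 0 fell in the edgeR test, with a median log2 fold change of 0.04. At an unadjusted p under 0.05 these counts were 10 and 3, and DESeq2 called 7 and 0. The shares over all tested genes were 1.67% higher and 1.71% lower by edgeR, 10.4% and 9.95% at the unadjusted p, and 4.83% and 4.84% by DESeq2. Those that rose were E2F1, an activator of S-phase genes, the CDK2 partners CCNE1 and CCNE2, and LSM11, a subunit of the U7 particle that cuts histone precursors. E2F1 lay at 60.4, 62.1 and 69.1 CPM in the controls and at 103, 100.6 and 103 CPM with 6-shogaol. The groups did not overlap (log2 fold change 0.68, edgeR adjusted p = 0.00828). CCNE2 lay at 12.4, 12.98 and 12.6 CPM in the controls and at 20.9, 26.0 and 24.7 CPM with 6-shogaol (log2 fold change 0.92, edgeR adjusted p = 0.0102), and 37.1% of its exon length is shared with other genes, mostly INTS8. CCNE1 lay at 17.99, 16.6 and 18.2 CPM in the controls and at 27.0, 23.9 and 24.4 CPM with 6-shogaol. LSM11 lay at 21.6, 21.2 and 22.9 CPM in the controls and at 28.9, 31.2 and 34.3 CPM with 6-shogaol. CCNE1 and LSM11 had log2 fold changes of 0.51 and 0.52, with edgeR adjusted p of 0.0364 and 0.0356 and no overlap of the groups. With single libraries left out, the list held 1, 0 and 1 calls upward without control 1, 2 and 3, 5 without 6-shogaol 1, and 2 and 2 without 6-shogaol 2 and 3. Across those fits 0.22% to 2.41% of all tested genes were called higher. The fold changes moved little, from 0.64 to 0.74 for E2F1, which lost its call only without control 2, from 0.85 to 1.003 for CCNE2, from 0.46 to 0.55 for CCNE1 and from 0.46 to 0.58 for LSM11. CCNE2 lost its call without control 1, 2 or 3.

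SLBP and the named factors of the histone loci did not pass the test. SLBP lay at 47.7, 53.6 and 51.8 CPM in the controls and at 52.6, 62.6 and 60.2 CPM with 6-shogaol. Treated replicate 1 lay within the control range (log2 fold change 0.20, edgeR adjusted p = 0.288). NPAT, the cyclin E-CDK2 target that activates histone loci, lay at 27.8, 29.1 and 24.0 CPM in the controls and at 22.5, 33.4 and 26.7 CPM with 6-shogaol. The treated libraries spanned the controls, and the log2 fold change of 0.03 (edgeR adjusted p = 0.942) changed sign without control 3 or 6-shogaol 2. CASP8AP2, a component of histone locus bodies, had all treated libraries above the controls, at 68.5 to 74.3 against 58.6 to 65.1 CPM, with a fitted log2 fold change of 0.20 that did not pass edgeR's test (adjusted p = 0.195).

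Among 36 tested histone chaperones and assembly factors, 1 rose and 0 fell in the edgeR test, with a median log2 fold change of 0.09. The edgeR count was near the background of 1.67% of all tested genes. The unadjusted counts were 9 and 1, beside 10.4% and 9.95% of all tested genes, and DESeq2 called 5 and 1, beside 4.83% and 4.84%. MMS22L, which with TONSL handles new histones at replication forks, lay at 28.2, 26.6 and 26.5 CPM in the controls and at 39.4, 45.0 and 42.7 CPM with 6-shogaol. The groups lay far apart (log2 fold change 0.64, edgeR adjusted p = 0.0137). RBBP4, a subunit of the CAF-1 assembly factor, lay at 229, 223 and 189.6 CPM in the controls and at 166, 153 and 139 CPM with 6-shogaol. Every treated library was lower, but the edgeR adjusted p of 0.0507 missed the threshold (log2 fold change -0.49), and 18% of its exon length is shared with SYNC.

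Of 8 tested genes for centromeric and other histone-fold proteins and variants, 1 fell and 0 rose in the edgeR test. At an unadjusted p under 0.05, 1 was lower and 1 higher, and DESeq2 and limma each called 1 lower and 1 higher. Over all tested genes edgeR called 1.71% lower and 1.67% higher, and the unadjusted p 9.95% and 10.4%. DESeq2 called 4.84% lower and 4.83% higher, and limma 2.51% and 3.53%. The 8 genes are too few to set against these shares. CENPA, the centromeric H3, lay at 35.9, 30.7 and 32.1 CPM in the controls and at 22.5, 23.2 and 19.3 CPM with 6-shogaol. The groups did not overlap (log2 fold change -0.60, edgeR adjusted p = 0.0356). CENPW, a histone-fold partner of CENPT, lay at 10.3, 9.73 and 9.45 CPM in the controls and at 7.67, 9.23 and 6.39 CPM with 6-shogaol, without passing the test (log2 fold change -0.34, edgeR adjusted p = 0.28). MACROH2A1, the H2A variant with a macro domain, had overlapping groups and a log2 fold change of 0.08. Without any 1 of the controls, or without 6-shogaol 2 or 3, CCNE1, LSM11, MMS22L and CENPA lost their calls. With a library left out the fold changes moved little, at 0.60 to 0.70 for MMS22L and -0.65 to -0.52 for CENPA.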

How the data were processed

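RNA was measured in 3 control and 3 6-shogaol libraries. Sample titles gave the group and the replicate number. Total RNA was extracted with Trizol, per the labels' protocols. The authors deposited raw counts per gene, not normalized, and FPKM values, per the file headers, in which 1e-04 stands for every one of the 215924 values with 0 counts. The aligner, counter and strand setting are not given in the sources used here. The submitters' processing notes name the mouse builds GRCm38 and mm10, but the identifiers are human. All 98 members found in GENCODE 29 (GRCh38) overlap the deposited position, 51 of them with the same start and end, and H2AC11 is printed at its deposited position. RefSeq promoters (GRCh38.p14) matched 74 members by symbol.

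The test was run on the counts with edgeR 4.0.16 under R 4.3.3 (TMM, filterByExpr, glmQLFit, glmQLFTest), which kept 19279 genes with a common biological coefficient of variation of 25.3%. P-values were adjusted by Benjamini-Hochberg over all of them, with a threshold of 0.05. Precision is limited by 3 libraries a group and totals of 43516840 to 60018999 counts. On simulated counts over 19279 genes for this comparison, the edgeR step recovered 12% of genes changed 1.5-fold, 56% of those changed 2-fold, 68% of those changed 3-fold and 92% of those changed 4-fold, and made 6 false calls among 120, while DESeq2 had 74 false among 219 calls. The 50 genes changed at each fold were drawn from those with an expected count of at least 50 per library. Recovery of genes with lower counts was not simulated, and many replication-dependent genes lie there, such as H1-5 with a mean of 11 counts.

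Genes named with all values were every called member, the highest member of each class and histone type and its most changed member with a mean of at least 1 CPM, a fixed set of variants, every called gene of the companion lists, the 2 most changed there at 5 CPM or more, and SLBP, NPAT and CASP8AP2. 1 member is counted in totals and medians but is not reported here. Members and lists were chosen with earlier results of these data known. No library was a copy of another (chi-square over degrees of freedom 31.3 to 63.7 between replicates). As alternatives, scaling was by RLE or upper quartiles, DESeq2 1.42.0 replaced edgeR, the filter was dropped or set to 1 CPM in 3 libraries, replicate numbers entered as a block, and single libraries were left out. Limma 3.58.1 was also run on log2(FPKM + 1) and log2(FPKM + 0.1), keeping genes that reached 1 FPKM in 3 libraries. Adding identical copies together was chosen after seeing the data.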

Additional observations from a re-analysis of the deposited data

How the results depend on the processing

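The median log2 fold changes of replication-dependent genes and of variants were below 0 under all 15 alternatives, as were the summed levels under those run for them. H2AC11 had a fold change below 0 throughout, and its adjusted p ran from 0.000383 with DESeq2 to 0.147. Histone genes called lower numbered 5 by DESeq2, 2 of 28 with a filter of 1 CPM, 0 of 79 with no filter and 0 to 1 of 46 to 50 with a library left out, beside 2.94%, 0.609% and 0.27% to 2.67% of all genes in the last 3 settings. Upward calls in the processing list numbered 7 by DESeq2, 2 with no filter and 0 to 5 with a library left out, and downward calls 0 to 1. For chaperones, upward calls numbered 5 by DESeq2, 3 and 2 by limma with pseudocounts 1 and 0.1 and 0 to 2 with a library left out. Downward calls there numbered 1 with RLE, upper-quartile scaling, DESeq2 or the 1 CPM filter and 0 to 2 with a library left out. For the other variants, upward calls numbered 1 by DESeq2 and by limma with either pseudocount, and downward calls 0 with no filter and 0 to 1 with a library left out. Over all genes, upward shares were 4.83% by DESeq2, 3.53% and 3.4% by limma, 0.571% with no filter and 0.22% to 2.41% with a library left out. Downward shares were 4.84% by DESeq2, 1.75% with RLE, 1.85% with upper-quartile scaling and 2.94% with the 1 CPM filter. They were 0.609% with no filter and 0.27% to 2.67% with a library left out. The median of replication-dependent genes was -0.162 and -0.165 by limma, which kept 11 of them, and -0.515 to -0.347 with a library left out. That of variants was -0.157 and -0.163 by limma and -0.204 to -0.161 with a library left out. The polyadenylated subset had -0.191 with the 1 CPM filter (7 genes kept), -0.0881 and -0.157 by limma (5 kept), -0.407 with identical copies added together and -0.531 to -0.171 with a library left out. The summed FPKM gave -0.24 for replication-dependent genes, whose summed CPM gave -0.426 to -0.364 with a library left out, and -0.112 for variants, with -0.2 to -0.174. With a library left out, H2AZ1 ran from -0.124 (6-shogaol 3) to 0.113 and was also below 0 without control 3 (-0.0161), and NPAT ran from -0.134 (6-shogaol 2) to 0.158 and was also below 0 without control 3 (-0.0462). Beyond the smaller numbers of genes or libraries entering a fit, the cause was not tested. Values of named genes kept their direction and side of the threshold 306 times, lost the call 40 times, gained it 8 times and changed sign 4 times.

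The labels do not state that shared replicate numbers pair the samples. Deviations of same-numbered libraries correlated at -0.0466, 0.0523 and -0.0422, and the highest correlation, 0.116, was between control 3 and 6-shogaol 1. No shared deviation was visible, but with 3 libraries a group this cannot exclude a pairing. With the replicate number as a block, edgeR called 3 of 19279 genes higher and 0 lower, with 0 histone genes lower, 0 processing genes and 0 chaperones higher and 0 other variants lower, and the replication-dependent median was -0.514. At these totals, 31 of 70 replication-dependent genes reached a mean of 10 counts. The others were held too low to read for differences, and whether a difference in them could be detected was not tested.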
